A study of Mnemiopsis leidyi with 31 samples.

Results

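In early embryos of the comb jelly Mnemiopsis leidyi, 31 of 31067 transcript records stood at 1 hour post fertilization (hpf) at a moderate level and were at most 0.5 times as abundant on average from 4 hpf on. Levels are in counts-per-million (CPM), the count of a record divided by the library's total. The 31 were chosen on the measured values of the libraries whose codes start with 2013. They had 20 to 1000 CPM in both 1 hpf libraries, and their means at 4 to 5, 6 to 7 and 8 to 9 hpf were each at most 0.5 of the 1 hpf mean. Of the 4697 records within these 1 hpf limits, 0.660% met all 3 conditions, and the upper limit of 200 members set for the list was not reached.

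The first cleavages of an animal embryo run on messenger RNA that the mother stored in the egg. Part of this maternal RNA is degraded during cleavage, and the embryo's own genome takes over transcription, a passage known as the maternal-to-zygotic transition. Some maternal transcripts are removed early by factors already present in the egg, and others late by products of the embryo's own genes. The records carry numbered identifiers, and 0 of the 31067 matched an entry of the RefSeq gene table for the species, so neither names nor roles can be given.

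Whole embryos were collected from wild-caught animals, in pools of 100 to 200 embryos per library, at each hour from 1 to 9 hpf, with no treatment or genetic change named. Polyadenylated RNA was sequenced. The 19 libraries with codes of 2013 comprised 3 per hour at 2, 7 and 8 hpf, 2 per hour at 1, 3, 4 and 6 hpf, and a single one at 5 and at 9 hpf. The 12 with codes of 2012 comprised 1 library at each hour, except for 2 each at 5, 6 and 8 hpf. The series calls the libraries of an hour biological replicates, but no label says which came from 1 spawning, so p-values measure only the spread between these libraries. The codes share their leading characters (2013_2 for 2013_21 to 2013_28, and so on). These code series are used below as they stand, without a stated meaning. For the tests of 2012, 1 hpf 2012_N7 and 4 hpf 2012_N4 were left out. In 0 of 31067 records was their count below that of 9 hpf 2012_37 and of 5 hpf 2012_14, whose totals made up 83.7% and 68.8% of theirs. Total counts ran from 17608264 to 66728425 in the libraries of 2013, and the lowest count behind any value of the 31 transcripts in all libraries was 25.

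The 31 transcripts were lower at the later hours but were not cleared, although they had been put forward as maternal transcripts cleared before 5 hpf. Their median level was 86.8 CPM at 1 hpf (range 27.4 to 719) and 53.6 CPM at 2 to 3 hpf. In the periods 4 to 5, 6 to 7 and 8 to 9 hpf it was 36.02, 30.7 and 31.3 CPM. At 8 to 9 hpf 0 of 31 were at or below 0.1 of their 1 hpf mean and 5 were at or below 0.25. In any of the 31 libraries, 0 of 31 were under 1 CPM. Among the other records within the 1 hpf limits these shares were 0%, 0.514% and 0.214%. The means at 8 to 9 hpf took part in the choice, so their counts are a description. The lowest value of all was 1.14 CPM, for Mle_018660 in 3 hpf 2013_33. In a whole embryo, fewer cells that hold a transcript and less RNA per cell cannot be told apart. As polyadenylated RNA was sequenced, a lower CPM is a smaller share of that RNA in the library. A change in polyadenylation was not tested.

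At 4 to 5 hpf the 31 transcripts had a median of 0.423 of the 1 hpf mean (range 0.194 to 0.487). These ratios chose them and are no finding. The mean at 4 to 5 hpf was at most 0.5 of the 1 hpf mean in 127 of the 4697 records within the 1 hpf limits (2.70%), against 761 (16.2%) at 6 to 7 hpf and 517 (11.01%) at 8 to 9 hpf. Of the 127, 38 were also at most 0.5 at 6 to 7 hpf, and 31 of these at 8 to 9 hpf. Among the 4666 records outside the list the median was 1.03 of 1 hpf at 4 to 5 hpf and 0.830 at 8 to 9 hpf. With TMM scaling (edgeR's trimmed mean of M-values) in place of totals, the median log2 ratio of those records at 4 to 5 hpf moved from 0.05 to -0.23. The median of the 31 minus that of the others was -1.29 by totals and -1.32 by TMM. The member nearest the limit, Mle_005632, had 0.493 as its highest ratio (316 CPM at 1 hpf and 153 CPM at 4 to 5 hpf). The nearest record outside, Mle_013632, had 0.505 (41.9 and 21.1 CPM).

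Together the 31 transcripts took a small share of each library. It was 0.388% of counts in 1 hpf 2013_21 (95% Wilson interval 0.386% to 0.390%) and 0.606% in 1 hpf 2013_41 (0.603% to 0.608%). The 3 libraries of 2 hpf averaged 0.293 ± 0.027% (SD), the 2 of 3 hpf 0.265 ± 0.0099%, the 2 of 4 hpf 0.218 ± 0.0090%, and the single 5 hpf library gave 0.195%. Later averages were 0.171 ± 0.0080% over the 2 libraries of 6 hpf, 0.202 ± 0.025% over the 3 of 7 hpf and 0.168 ± 0.024% over the 3 of 8 hpf, and the single 9 hpf library gave 0.145%. The 2 libraries of 1 hpf were above every later library of 2013, and 2 to 3 hpf was above all of 4 to 9 hpf. The difference between 1 hpf and 4 to 9 hpf is fixed by the choice and is no finding.

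In this share the 2 libraries of 1 hpf differed more from each other than libraries of 1 later hour of 2013 did. Library 2013_41 was above 2013_21 in 27 of the 31 transcripts, against 42.2% of the records outside the list, and by a median of 1.68-fold (range 0.530 to 6.89). In 10 of the 31 it was at least 2-fold higher, against 4.91% of the others. The 4 transcripts that were higher in 2013_21, named after their values were seen, were Mle_006179, Mle_018660, Mle_019241 and Mle_004358. With the 1 hpf mean, which 2013_41 dominates, as the yardstick, all 31 met the limits by the choice itself. Against 2013_41 alone 28 of the 31 met them, and against 2013_21 alone 6 did. Only 3 met them against both, and they are described further on. The part that library 2013_41 had in the choice was not tested further.

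**Figure D1:**
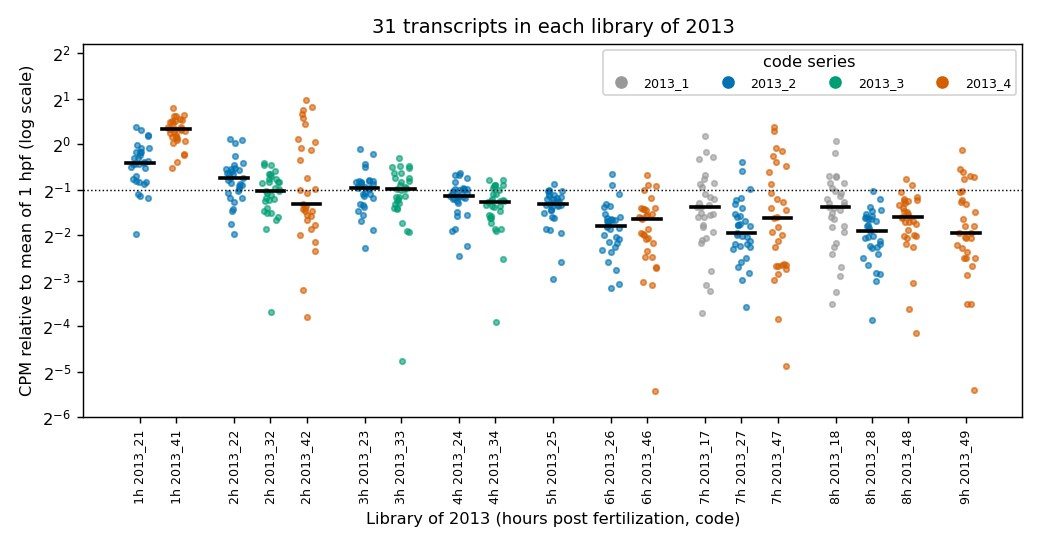
Level of each of the 31 transcripts (points) in each library of 2013, relative to its mean at 1 hpf, on a log2 axis; black bars are medians, colours are code series and the dotted line is the limit of 0.5. Medians lie at 0.746 and 1.25 in the 1 hpf libraries, between 0.401 and 0.593 at 2 to 3 hpf, and between 0.258 and 0.455 from 4 hpf on.

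Within a code series the levels could be read hour by hour. In series 2013_2, with 1 library at each hour from 1 to 8 hpf, the median of the 31 relative to 2013_21 passed through 0.811, 0.706, 0.618 and 0.534 at 2, 3, 4 and 5 hpf. It was then 0.385, 0.415 and 0.389 in the libraries of 6, 7 and 8 hpf. The step from 5 to 6 hpf was the largest of the 7, with a median ratio of 0.682, and the other records had 0.817 at the same step. In this series 6 of 31 stood at or below 0.5 at 4 hpf, 12 at 5 hpf and 24 at 8 hpf. All of these libraries but those of 2 and 3 hpf took part in the choice, so the decrease, and its contrast with the other records, is built in and is given as a description. The other records stayed at medians of 0.960 to 1.02 up to 5 hpf and were at 0.764 to 0.840 from 6 to 8 hpf.

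Series 2013_4 had libraries at 1, 2 and 6 to 9 hpf. Relative to 2013_41 its median was 0.396 at 2 hpf, and the libraries of 6, 7, 8 and 9 hpf gave 0.2501, 0.266, 0.273 and 0.227. All 31 were at most 0.5 at 6 hpf. Its 2 hpf library, 2013_42, was low in the other records too, with a median of 0.691 of 2013_41. It also spread the 31 most widely of the series' libraries, from 0.0467 to 1.55 of 2013_41. In 4 transcripts it exceeded even 2013_41. These were Mle_005720, Mle_025695, Mle_006931 and Mle_014411, of which the last 2 are named after their values were seen.

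**Figure D2:**
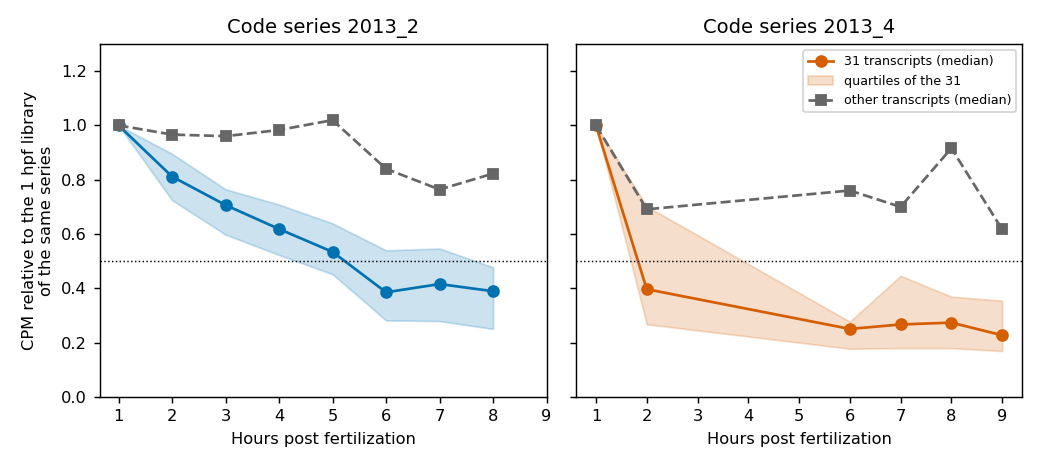
Median level of the 31 transcripts (solid line, shaded quartiles) and of the 4666 other records within the 1 hpf limits (dashed) relative to the 1 hpf library of the same code series, by hour. The median of the 31 was lower at each hour down to 0.534 at 5 hpf in series 2013_2, and stood at 0.396 at 2 hpf in series 2013_4.

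The libraries of 2 and 3 hpf were not used to choose the transcripts. Their mean was under the 1 hpf mean in all 31 and at most 0.5 of it in 9, with a median of 0.573 (range 0.298 to 0.871). It lay between the means of 1 hpf and 4 to 5 hpf in 30 of the 31. The exception, Mle_007128, is named after its values were seen and was at 15.8 CPM at 4 to 5 hpf. All 5 libraries were under both 1 hpf libraries in 15 of the 31. The background was 2.74% of 21255 records tested and 6.77% of the other records within the 1 hpf limits. Without 2013_42, a choice made after seeing the data, the median ratio was 0.534. The comparison shares its 1 hpf libraries with the choice, so nothing is read from it.

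Steps between consecutive libraries of 1 series were uneven. From 2 to 3 hpf, 26 of 31 transcripts were lower in 2013_23 than in 2013_22 (median ratio 0.854), against 51.9% of the other records. In series 2013_3 18 of 31 were lower at the same step (median ratio 0.968), against 62.1% of the others. From 3 to 4 hpf 28 of 31 were lower in series 2013_2 (0.886) and 28 of 31 in series 2013_3 (0.826), but the 4 hpf libraries took part in the choice.

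The step from 2 to 3 hpf was tested across all records with edgeR's quasi-likelihood test over the 19 libraries of 2013. With Benjamini-Hochberg adjustment 0 of 21255 records passed 0.05 in either direction (percent called 0), and 0 of the 31. The lowest adjusted p among the 31 was 1. An unadjusted p under 0.05 was found for 0 of the 31, against 75 records (0.353%) lower and 498 (2.34%) higher at 3 hpf. The log2 fold change was below 0 in 24 of 31 with a median of -0.24, and the median of all tested records was 0.35. DESeq2 called 2 records and limma 0, none of them among the 31. The number of the 31 lower at an unadjusted p under 0.05 was not stable, and the share of all records moved too. It was 4 with DESeq2 (1.46% of all records), 4 without the filter on low counts (1.19%) and 2 with RLE factors (0.899%). It was 4 without 2013_22 (1.74%) and 3 without 2013_32 (1.66%). Without 2013_23, which leaves 1 library of 3 hpf, the median was -0.33 for the 31 and 0.36 for all records. Without 2013_42 the median was -0.10 for the 31 and 0.06 for all records. Without 2 hpf 2013_32, 43 records passed, 0 of them among the 31.

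The 2 transcripts with the lowest ratio of 4 to 5 hpf to 1 hpf were Mle_000389 and Mle_015508. Mle_000389 (503 bases) held 37.4 CPM in 1 hpf 2013_21 and 126 CPM in 1 hpf 2013_41. At 2 hpf it stood at 20.7, 37.7 and 5.89 CPM in 2013_22, 2013_32 and 2013_42, and at 3 hpf at 16.8 and 40.9 CPM in 2013_23 and 2013_33. It was at 14.9 and 22.3 CPM in the 4 hpf libraries 2013_24 and 2013_34 and at 10.4 CPM in the single 5 hpf library. Within series 2013_2 it was lower at each of these hours, while in series 2013_4 it was lowest at 2 hpf. Later it stood at 9.14 and 51.3 CPM at 6 hpf (2013_26 and 2013_46), 92.9, 10.3 and 11.4 CPM at 7 hpf (2013_17, 2013_27 and 2013_47), 85.3, 5.64 and 22.02 CPM at 8 hpf (2013_18, 2013_28 and 2013_48) and 14.5 CPM at 9 hpf. It was high again in both libraries of series 2013_1, 2013_17 and 2013_18, and its mean at 8 to 9 hpf was 2.01-fold that at 4 to 5 hpf, the largest such ratio of the 31. That ratio rests on 2013_18: without it, a setting added after seeing the data, it was 0.886.

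Mle_015508 (2486 bases) held 122 CPM in 1 hpf 2013_21 and 435 CPM in 1 hpf 2013_41. Levels of 122, 91.7 and 287 CPM followed in the 2 hpf libraries (2013_22, 2013_32, 2013_42) and of 123 and 72.8 CPM in those of 3 hpf (2013_23, 2013_33). Libraries 2013_24 and 2013_34 of 4 hpf held 94.1 and 48.4 CPM, and the 5 hpf library 71.6 CPM. In series 2013_2 it was level from 1 to 3 hpf and lower from 4 hpf, and its place on the list rests on the 1 hpf value of 2013_41. From 6 hpf on, 2013_26 and 2013_46 held 77.7 and 106 CPM, the 7 hpf libraries 2013_17, 2013_27 and 2013_47 73.5, 63.9 and 198 CPM, the 8 hpf libraries 2013_18, 2013_28 and 2013_48 73.1, 63.4 and 82.3 CPM and the 9 hpf library 169 CPM. Its mean at 8 to 9 hpf was 1.36-fold that at 4 to 5 hpf, the second largest ratio. That ratio rests on the single 9 hpf library: the 3 libraries of 8 hpf averaged 73.0 CPM, against 71.4 CPM at 4 to 5 hpf. The groups overlapped, as 2013_47 and 2013_49 were above 2013_21.

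The transcripts lowest at 2 to 3 hpf relative to 1 hpf were Mle_000389 (0.298) and Mle_014785 (0.366). Mle_014785 (1262 bases) held 47.4 CPM in 1 hpf 2013_21 and 114 CPM in 1 hpf 2013_41. The 3 libraries of 2 hpf (2013_22, 2013_32 and 2013_42) gave 38.2, 29.2 and 20.1 CPM and the 2 of 3 hpf (2013_23 and 2013_33) 29.04 and 30.6 CPM. By 4 hpf the level was 21.5 and 27.2 CPM (2013_24 and 2013_34), and at 5 hpf it was 22.3 CPM. All 8 of these later libraries were below both 1 hpf libraries. The late values were 30.9 and 30.6 CPM at 6 hpf (2013_26, 2013_46), 32.9, 27.6 and 30.3 CPM at 7 hpf (2013_17, 2013_27, 2013_47), 33.1, 26.2 and 26.8 CPM at 8 hpf (2013_18, 2013_28, 2013_48) and 39.1 CPM at 9 hpf. From 3 hpf on all 14 libraries lay between 21.5 and 39.1 CPM, with 0.389 of the 1 hpf mean left at 8 to 9 hpf.

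The transcripts highest at 2 to 3 hpf relative to 1 hpf were Mle_005720 (0.871) and Mle_025695 (0.777). Mle_005720 (1190 bases) held 45.2 CPM in 1 hpf 2013_21 and 77.9 CPM in 1 hpf 2013_41. At 2 hpf it stood at 39.2, 36.1 and 120.3 CPM in 2013_22, 2013_32 and 2013_42, and at 3 hpf at 28.1 and 44.1 CPM in 2013_23 and 2013_33. It was at 25.2 and 32.6 CPM in the 4 hpf libraries 2013_24 and 2013_34 and at 20.3 CPM in the single 5 hpf library. Its high mean at 2 to 3 hpf came from 2013_42, and the other 4 libraries of those hours were under both 1 hpf libraries. Later it stood at 24.1 and 14.4 CPM at 6 hpf (2013_26 and 2013_46), 36.1, 27.1 and 26.6 CPM at 7 hpf (2013_17, 2013_27 and 2013_47), 30.03, 19.8 and 14.8 CPM at 8 hpf (2013_18, 2013_28 and 2013_48) and 17.7 CPM at 9 hpf. All 9 of these libraries were below both of 1 hpf.

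Mle_025695 (1176 bases) held 149.6 CPM in 1 hpf 2013_21 and 281 CPM in 1 hpf 2013_41. Levels of 113, 126 and 377 CPM followed in the 2 hpf libraries (2013_22, 2013_32, 2013_42) and of 110.4 and 109.7 CPM in those of 3 hpf (2013_23, 2013_33). Libraries 2013_24 and 2013_34 of 4 hpf held 108 and 77.3 CPM, and the 5 hpf library 83.7 CPM. As with Mle_005720, 2013_42 stood far above the other libraries of its hour. From 6 hpf on, 2013_26 and 2013_46 held 52.5 and 38.8 CPM, the 7 hpf libraries 2013_17, 2013_27 and 2013_47 95.8, 52.8 and 89.8 CPM, the 8 hpf libraries 2013_18, 2013_28 and 2013_48 102, 45.3 and 45.1 CPM and the 9 hpf library 51.99 CPM. Every library of 2013 from 4 hpf on was below both of 1 hpf.

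The lowest ratios of 8 to 9 hpf to 4 to 5 hpf belonged to Mle_010156 (0.253) and Mle_011620 (0.498). Mle_010156 (1025 bases) held 38.9 CPM in 1 hpf 2013_21 and 65.5 CPM in 1 hpf 2013_41. The 3 libraries of 2 hpf (2013_22, 2013_32 and 2013_42) gave 26.2, 34.6 and 14.3 CPM and the 2 of 3 hpf (2013_23 and 2013_33) 29.6 and 23.9 CPM. By 4 hpf the level was 26.8 and 22.1 CPM (2013_24 and 2013_34), and at 5 hpf it was 23.1 CPM. Through 5 hpf the level in series 2013_2 stayed between 23.1 and 29.6 CPM after 1 hpf. The late values were 10.9 and 6.14 CPM at 6 hpf (2013_26, 2013_46), 5.58, 9.30 and 8.26 CPM at 7 hpf (2013_17, 2013_27, 2013_47), 6.97, 6.49 and 6.27 CPM at 8 hpf (2013_18, 2013_28, 2013_48) and 4.57 CPM at 9 hpf. All 9 libraries from 6 hpf on were below every earlier one.

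Mle_011620 (4581 bases) held 41.5 CPM in 1 hpf 2013_21 and 106 CPM in 1 hpf 2013_41. At 2 hpf it stood at 40.5, 23.3 and 26.9 CPM in 2013_22, 2013_32 and 2013_42, and at 3 hpf at 34.6 and 19.9 CPM in 2013_23 and 2013_33. It was at 32.5 and 20.4 CPM in the 4 hpf libraries 2013_24 and 2013_34 and at 30.8 CPM in the single 5 hpf library. The libraries of series 2013_2 were above those of series 2013_3 at each of these hours. Later it stood at 16.4 and 16.5 CPM at 6 hpf (2013_26 and 2013_46), 10.7, 16.3 and 11.97 CPM at 7 hpf (2013_17, 2013_27 and 2013_47), 11.4, 13.9 and 18.6 CPM at 8 hpf (2013_18, 2013_28 and 2013_48) and 11.6 CPM at 9 hpf. Every library of 6 to 9 hpf lay below all of 1 to 5 hpf. As a level per length, RPKM (CPM per kilobase of record, with each library's own total), it was at 16.1 at 1 hpf.

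**Figure D3:**
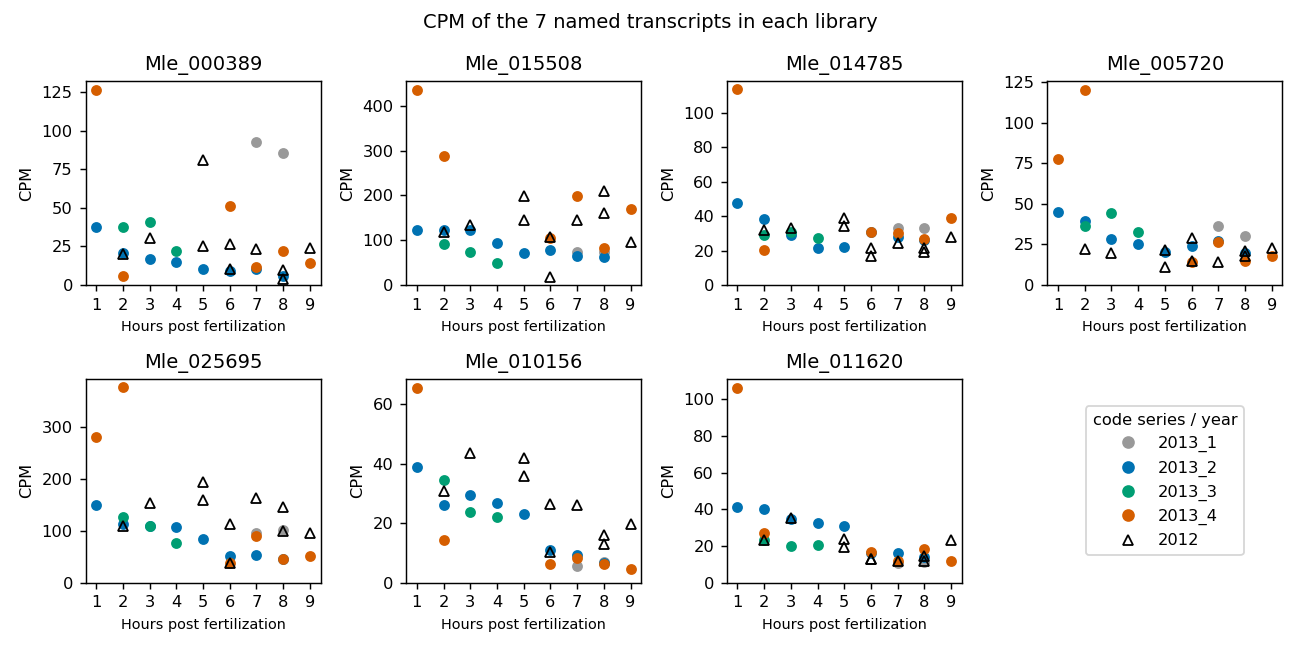
CPM of the 7 transcripts named by rule in each library by hour; filled circles are libraries of 2013 coloured by code series, open triangles are libraries of 2012 without 2012_N7 and 2012_N4. In Mle_000389, Mle_015508, Mle_014785 and Mle_011620 the 1 hpf library 2013_41 stands apart from 2013_21, and Mle_010156 stands below 11 CPM in all 2013 libraries from 6 hpf on.

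The 3 transcripts whose later means were at most 0.5 of each 1 hpf library, named after their values were seen, were Mle_006179, Mle_020195 and Mle_006646. Mle_020195 (2304 bases) held 231 CPM in 1 hpf 2013_21 and 236 CPM in 1 hpf 2013_41. The 3 libraries of 2 hpf (2013_22, 2013_32 and 2013_42) gave 161, 111 and 87.5 CPM and the 2 of 3 hpf (2013_23 and 2013_33) 129 and 101 CPM. By 4 hpf the level was 106 and 91.96 CPM (2013_24 and 2013_34), and at 5 hpf it was 94.2 CPM. All of these libraries were below both of 1 hpf, which differed from each other by less than later libraries of the same hour did. The late values were 71.7 and 59.1 CPM at 6 hpf (2013_26, 2013_46), 122, 67.9 and 48.6 CPM at 7 hpf (2013_17, 2013_27, 2013_47), 121, 64.9 and 95.01 CPM at 8 hpf (2013_18, 2013_28, 2013_48) and 74.7 CPM at 9 hpf. The 2 libraries of series 2013_1 were the highest of 6 to 9 hpf.

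Mle_006646 (2266 bases) held 68.9 CPM in 1 hpf 2013_21 and 76.8 CPM in 1 hpf 2013_41. At 2 hpf it stood at 54.8, 35.5 and 14.4 CPM in 2013_22, 2013_32 and 2013_42, and at 3 hpf at 41.4 and 41.8 CPM in 2013_23 and 2013_33. It was at 36.9 and 30.5 CPM in the 4 hpf libraries 2013_24 and 2013_34 and at 35.6 CPM in the single 5 hpf library. Again every library after 1 hpf lay below both 1 hpf libraries. Later it stood at 24.2 and 11.3 CPM at 6 hpf (2013_26 and 2013_46), 31.5, 20.9 and 11.6 CPM at 7 hpf (2013_17, 2013_27 and 2013_47), 30.2, 26.8 and 32.8 CPM at 8 hpf (2013_18, 2013_28 and 2013_48) and 26.1 CPM at 9 hpf. The lowest value of each of the hours 2, 6 and 7 hpf came from series 2013_4.

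Mle_006179 (1738 bases) held 157 CPM in 1 hpf 2013_21 and 116 CPM in 1 hpf 2013_41. Levels of 72.8, 77.2 and 39.7 CPM followed in the 2 hpf libraries (2013_22, 2013_32, 2013_42) and of 37.05 and 98.5 CPM in those of 3 hpf (2013_23, 2013_33). Libraries 2013_24 and 2013_34 of 4 hpf held 28.8 and 79.01 CPM, and the 5 hpf library 22.5 CPM. In series 2013_2 it was lower at each hour up to 6 hpf, while in series 2013_3 the libraries of 3 and 4 hpf, 2013_33 and 2013_34, were at or above that of 2 hpf. From 6 hpf on, 2013_26 and 2013_46 held 16.2 and 3.17 CPM, the 7 hpf libraries 2013_17, 2013_27 and 2013_47 111, 19.3 and 4.68 CPM, the 8 hpf libraries 2013_18, 2013_28 and 2013_48 74.98, 18.9 and 7.74 CPM and the 9 hpf library 3.26 CPM. All later libraries were below both of 1 hpf. The 6 to 8 hpf libraries split by code series: both of 2013_1 were at 111 and 74.98 CPM, those of 2013_2 between 16.2 and 19.3 CPM, and those of 2013_4 between 3.17 and 7.74 CPM.

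After 5 hpf the 31 transcripts took different courses, as the other records did. Their ratio of 8 to 9 to 4 to 5 hpf had quartiles of 0.658 and 0.963, against 0.612 and 1.09 in the other records. The mean was lower at 6 to 7 than at 4 to 5 hpf in 23 of 31, against 67.04% of the other records, and the median ratio was 0.885 against 0.782. From 6 to 7 to 8 to 9 hpf 18 of 31 were lower (median ratio 0.965), against 44.3% of the other records (1.04). In 6 of 31 the mean at 8 to 9 hpf was above that at 4 to 5 hpf, against 31.7% of the others. All 12 libraries of 4 to 9 hpf were under both of 1 hpf in 22 of the 31. The background was 1.53% of 21255 records tested and 5.21% of the other records within the 1 hpf limits. All 3 of 4 to 5 hpf were under both in 29 of the 31 (4.93% and 15.0%). All 5 of 6 to 7 hpf were so in 23 (9.81% and 26.2%) and all 4 of 8 to 9 hpf in 24 (6% and 19.8%). These libraries chose the transcripts, and nothing is read from the counts.

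The libraries of 2012 took no part in the choice. With the 1 hpf and 4 hpf columns left out, their tests compare 5 hpf, 6 to 7 hpf and 8 to 9 hpf with 2 to 3 hpf, so they have no 1 hpf baseline like that of 2013. The share of counts held by the 31 was 0.299% in 2 hpf 2012_N6, 0.342% in 3 hpf 2012_N5, and 0.290% and 0.316% in the 5 hpf libraries 2012_14 and 2012_N3. It was 0.122%, 0.243% and 0.273% in 2012_23, 2012_N2 and 2012_N1 at 6 to 7 hpf. At 8 to 9 hpf it was 0.172%, 0.210% and 0.246% in 2012_18, 2012_N8B and 2012_37. The 5 hpf libraries thus overlapped those of 2 to 3 hpf, while all 3 of 8 to 9 hpf and all 3 of 6 to 7 hpf were below both.

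At 5 hpf the 31 transcripts did not pass as lower in 2012. Against the 2 libraries of 2 to 3 hpf, 0 of 31 transcripts passed Benjamini-Hochberg adjusted 0.05 in edgeR's quasi-likelihood test (background 0% lower and 0.00825% higher of 24246 records tested), and the lowest adjusted p among the 31 was 0.524. At an unadjusted p under 0.05, 0 of 31 were lower and 0 higher, against 8.1% and 0.61% of all records. The log2 fold change was below 0 in 13 of 31 with a median of 0.04 (range -1.58 to 1.20), while the median of all records was -0.96. The sign of the median depended on the scaling: with library totals alone it was -0.11, with 19 of 31 below 0. Without 2012_N6, which leaves 1 early library, the median was -0.24 for the 31 and 0.01 for all records. Without 2012_N5 these medians were 0.76 and -1.42. The low median of all records thus rested on 2012_N6. Both 5 hpf libraries were under both early ones in 9 of 31, against a background of 13.3% and 6.19% of the other records within the 1 hpf limits. The mean was at most 0.5 of the early mean in 1 of 31 (1.03% of those others). The transcript with the lowest fold change was Mle_006179, at 29.4 and 58.2 CPM in the early libraries and 11.3 and 16.2 CPM at 5 hpf. Its log2 fold change of -1.58 had an SE of 1.08 and an unadjusted p of 0.171 (edgeR). It is one of the 3 that met the limits against both 1 hpf libraries of 2013. The other 2, Mle_020195 and Mle_006646, had log2 fold changes of -0.16 (SE 0.54) and -0.30 (SE 0.51).

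At 6 to 7 hpf 30 of 31 log2 fold changes against 2 to 3 hpf were below 0, with a median of -0.66 against -0.15 for all records. None of the 31 passed after adjustment (edgeR, lowest adjusted p 1.00, background 0% lower and 0.00412% higher). At an unadjusted p under 0.05, 4 of 31 were lower and 0 higher, against 0.936% and 1.7% of all records. All 3 libraries were under both early ones in 17 of 31, against a background of 5.74% and 10.1% of the other records within the limits. The mean was at most 0.5 of the early mean in 6 of 31 (0.986% of those others). These values lean on 3 hpf 2012_N5: without it 12 of 31 fold changes were below 0. The median was then 0.13 for the 31 and 0.15 for all records. Without 2012_23 or 2012_N2 there were 2 at that p (0.429% and 5.86% of all records), and without 2012_N1 10 (2.58%). Without 2012_N6, which leaves 1 early library, the median of the 31 was -0.94, but that of all records moved to 1.98. Without both 2012_N6 and 2012_N1 these medians were -1.46 and 2.37. The number of the 31 lower at an unadjusted p under 0.05 was 7 with library totals alone (1.14% of all records). It was 10 with limma (1.33% and 1.31% at pseudocounts of 1 and 0.1). It was 2 with RLE factors (0.668%) and 1 without the filter on low counts (0.837%).

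At 8 to 9 hpf 29 of 31 log2 fold changes against 2 to 3 hpf were below 0, with a median of -0.92 (range -1.89 to 0.45), while the median of all records was 0.17. None passed after adjustment (edgeR, lowest adjusted p 1.00, background 0% lower and 0% higher). At an unadjusted p under 0.05, 13 of 31 were lower and 0 higher, against 2.8% and 0.755% of all records. All 3 libraries were under both early ones in 16 of 31, against a background of 11.6% and 27.1% of the other records within the limits. The mean was at most 0.5 of the early mean in 8 of 31 (6.15% of those others). Without 2012_N5, which leaves 1 early library, the median was -0.41 for the 31 and -0.06 for all records. Without 2012_N6 these medians were -1.20 and 2.29. Without 2012_18 or 2012_N8B the 13 became 2 and 3, and the share of all records fell to 0.383% in both. Without 2012_37 it was 12 (2.67%). With library totals alone it was 3 (0.808%, median of the 31 -0.55) and without the filter on low counts 8 (1.32%). With limma it was 7 (1.36% and 1.34% at pseudocounts of 1 and 0.1). DESeq2 and limma also called 0 of the 31 at each of the 3 times in 2012.

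That 2012_N7 and 2012_N4 are sums that hold 2012_37 and 2012_14 is inferred from the counts and not stated in the labels. If it holds, subtraction leaves 13782249 counts for 1 hpf in 2012. In them the 31 held 0.451% of counts and a median of 45.1 CPM, a larger share than in any other library of 2012. In what was left of 4 hpf 2012_N4 they held 0.194%. With both included, the median log2 fold change against 1 to 3 hpf was -0.42 at 4 to 5 hpf (25 of 31 below 0), -0.80 at 6 to 7 hpf and -1.13 at 8 to 9 hpf. In all records tested those medians were -0.17, -0.06 and 0.38. Lower at an unadjusted p under 0.05 (edgeR) were 1, 10 and 18 of 31, against 1.38%, 1.02% and 5.08% of all records. After adjustment 0 of the 31 passed. Whether 2012 and 2013 differ in timing was not tested.

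**Figure D4:**
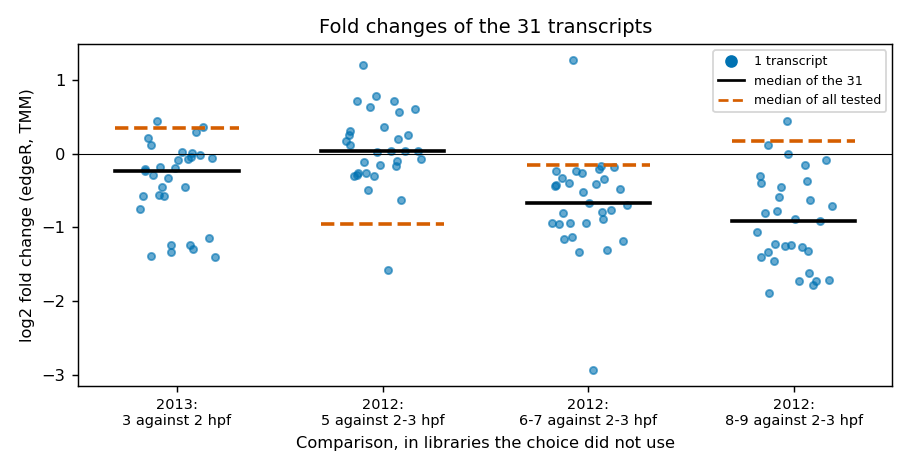
Log2 fold changes (edgeR, TMM scaling) of the 31 transcripts in the comparisons between libraries that did not choose them; points are transcripts, black bars their median and dashed bars the median of all records tested. Medians of the 31 were -0.24 from 2 to 3 hpf in 2013, and 0.04, -0.66 and -0.92 at 5, 6 to 7 and 8 to 9 hpf against 2 to 3 hpf in 2012.

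Among the named transcripts none passed after adjustment in 2012 (edgeR). Mle_010156 stood at 30.9 and 43.5 CPM at 2 and 3 hpf, 41.8 and 35.7 CPM at 5 hpf and 15.9, 13.1 and 19.7 CPM at 8 to 9 hpf. Its log2 fold change at 8 to 9 hpf against 2 to 3 hpf was -1.61 (SE 0.54, unadjusted p = 0.013), and -0.82 without 2012_N5. All 3 libraries of 8 to 9 hpf were below all 4 of 2 to 5 hpf, while 6 hpf 2012_23, at 10.4 CPM, was lower still. Mle_011620 stood at 23.2 and 35.5 CPM at 2 and 3 hpf, 13.03, 12.7 and 11.8 CPM at 6 to 7 hpf and 14.7, 11.8 and 23.3 CPM at 8 to 9 hpf. Its log2 fold change was -1.33 at 6 to 7 hpf (SE 0.51, unadjusted p = 0.0236), and -0.29 without 2012_N5. The groups of 6 to 7 hpf did not overlap the early ones, while 2012_37 did.

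Mle_000389 stood at 20.3 and 30.4 CPM at 2 and 3 hpf and at 80.8 and 25.2 CPM at 5 hpf, a log2 fold change of 1.20 (SE 0.89) with overlapping groups, which was 0.28 without 2012_14 and 2.21 without 2012_N5. Mle_015508 went from 119 and 135 CPM to 145 and 198 CPM at 5 hpf and 160.2, 210.2 and 96.6 CPM at 8 to 9 hpf. Neither of these, the pair with the lowest ratio of 4 to 5 hpf to 1 hpf in 2013, was lower at 5 hpf in both libraries of 2012. Mle_014785 stood at 32.1 and 33.1 CPM at 2 and 3 hpf, 38.9 and 34.5 CPM at 5 hpf and 21.4, 19.1 and 27.9 CPM at 8 to 9 hpf. Mle_005720 stood at 22 and 19.9 CPM, 11.02 and 21.6 CPM and 18.1, 20.8 and 23.04 CPM at the same hours, and Mle_025695 at 109 and 155, 195 and 159, and 100.3, 147 and 95.95 CPM. Of these 3, Mle_014785 had all late libraries below both early ones, and the other two overlapped.

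Record length took no part in the choice. The 31 transcripts had a median length of 1548 bases (quartiles 1180 and 2342, range 503 to 4581), against 2460 bases (1692 and 3522) for the other records within the 1 hpf limits. Of the 31, 24 were shorter than that median. Their 1 hpf level in CPM had nearly the same median as the others, 86.8 against 87.3. Per length, in RPKM with each library's own total, the median 1 hpf level was 78.5 for the 31 transcripts and 36.5 for the others. The highest per length were Mle_002502 at 577 RPKM and Mle_004497 at 547 RPKM, and the lowest was Mle_018660 at 8.91 RPKM. Records are not samples, so no test was made.

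**Figure D5:**
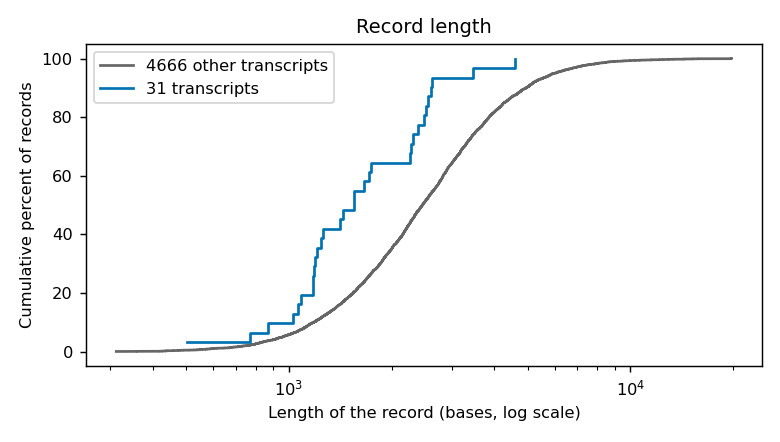
Cumulative percent of records by length in bases (log axis) for the 31 transcripts and the 4666 other records within the 1 hpf limits. The medians are 1548 and 2460 bases.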

How the data were processed

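Read counts per transcript record were deposited for 31 libraries, with RPKM (reads per kilobase and sequencing depth) in a second table. Bowtie2 and SAMtools are named in the submitters' processing notes; the build and the counting steps are not stated in these sources. All deposited RPKM values imply 1 common total of 1413671828 counts, the sum over all libraries, so they are not scaled to each library and were used only for this check. CPM, and RPKM where printed, were computed from the counts with each library's own total.

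The 31 transcripts and all lists were chosen with earlier results of these data known. Tests used edgeR 4.0.16 (quasi-likelihood, TMM, filterByExpr, R 4.3.3) on the counts of all records, with Benjamini-Hochberg adjustment at 0.05, in contrasts between libraries that had not chosen the transcripts; in 2013 the other hours, which had, shared the estimate of the spread. The 2013 fit had hour as factor, the 2012 fit period. The fit was also run on simulated counts, but with less spread between libraries than these data had. That run therefore cannot show how small a change the tests could find here. All 31 passed the filter on low counts in both fits. DESeq2 1.42.0, limma 3.58.1 on log2 of the computed RPKM (pseudocounts of 1 and 0.1, minimum RPKM of 1 in 2 libraries), other scalings, no filter and left-out libraries were alternatives. Intervals cover counting error only.

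Transcripts were named by rule: the 2 lowest ratios of 4 to 5 to 1 hpf, the 2 lowest and 2 highest of 2 to 3 to 1 hpf, the 2 largest and 2 smallest of 8 to 9 to 4 to 5 hpf, and any that passed a test, of which there were 0. Others are said to be named after their values were seen. One 3 hpf library has different codes in its title and description; the description, 2013_23, matches the count table and was used.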

Additional observations from a re-analysis of the deposited data

Results flagged for a closer look

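Among 32 groups of values examined, each over 4 or more libraries of 1 hour with years pooled, 4 held a library far from the others by Dixon's criterion. Chance meets this criterion in about 1 in 20 groups. Mle_000389 was at 92.9 CPM in 7 hpf 2013_17, with the other 3 libraries of that hour between 10.3 and 23.3 CPM. It was also at 85.3 CPM in 8 hpf 2013_18, with the other 4 between 3.81 and 22.02 CPM. Both libraries belong to code series 2013_1. Mle_015508 was at 287 CPM in 2 hpf 2013_42, with the other 3 libraries between 91.7 and 122 CPM. Mle_025695 was at 377 CPM in the same library, with the other 3 between 109 and 126 CPM. The 2013_42 library also had the lowest median of the other records at 2 hpf, 0.650 of their 1 hpf mean, and a TMM factor of 0.641. The part of this library in the 2 values was not tested.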

How the results depend on the processing

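The count of 31 members rested on the scaling and on the libraries: the rule gave 85 with TMM scaling, 54 without series 2013_2 at 4 to 9 hpf and 131 with 2013_41 as the only 1 hpf library. These shared 30, 17 and 28 members with the list. With 2013_21 as the only 1 hpf library it gave 41, of which 6 were on the list. The members' median ratio to 1 hpf at 2 to 3 hpf (0.573) was 0.740 within series 2013_2, 0.396 within series 2013_4, 0.683 against 2013_21 alone and 0.489 against 2013_41 alone. At 4 to 5 hpf (0.423) it was 0.340 with TMM, 0.577 within series 2013_2, and 0.572 and 0.346 against 2013_21 and 2013_41. At 6 to 7 hpf (0.355) it was 0.262 within series 2013_4, and 0.506 and 0.273 against 2013_21 and 2013_41. At 8 to 9 hpf (0.338) it was 0.237 with TMM, and 0.455 and 0.272 against 2013_21 and 2013_41. The ratio of 8 to 9 to 4 to 5 hpf of Mle_000389 (2.01) was 0.886 without 2013_18. That setting and those with 1 library of 1 hpf were chosen after seeing the data.

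Records called over the whole table moved more than the members, of which 0 were called under any setting run. For 3 against 2 hpf in 2013 (0 calls) DESeq2 gave 2, and leaving out 1 library gave 0 to 43. For 5 hpf against 2 to 3 hpf in 2012 (2 calls) the count was 0 with library totals, 21 without the filter, 190 with DESeq2, 13 and 29 with limma at pseudocounts of 1 and 0.1, 6 with all 12 columns as deposited and 7 without 2012_N6 and 2012_N1. Leaving out 1 library gave 0 to 9. For 6 to 7 hpf (1 call) it was 4 with RLE factors, 21 without the filter, 152 with DESeq2, 17 and 31 with limma, 0 as deposited, 11 with the smaller columns subtracted and 10 without 2012_N6 and 2012_N1. Leaving out 1 library gave 1 to 12. For 8 to 9 hpf (0 calls) it was 41 with DESeq2 and 907 without 2012_N6 and 2012_N1, and 0 whichever library was left out. The cause of these differences was not tested.

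With the code series as a replicate block, 3 against 2 hpf gave 0 calls, a members' median log2 fold change of -0.13 and 21 of 31 below 0. Libraries of the same series deviated together from the mean of their hour (correlations of 0.543 and 0.548), but there were only 2 such pairs. At 3 hpf the only libraries were 2013_23 and 2013_33, so their deviations were exact opposites. The 2 correlations are therefore not separate readings, and the labels do not pair the libraries.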

Other observations

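Mle_018660 (3467 bases), singled out after its values were seen, differed between code series at 2 to 4 hpf. In series 2013_2 it stood at 38.2, 31.7, 22.7 and 20.02 CPM at 1, 2, 3 and 4 hpf. In series 2013_3 it stood at 2.41, 1.14 and 2.06 CPM at 2, 3 and 4 hpf. In 2012 it was at 10.9, 3.06, 5.08 and 2.62 CPM in 2012_N6, 2012_N5, 2012_14 and 2012_N3, and at 39.5 CPM in 6 hpf 2012_23. The same hour therefore held levels that differed more between series than between 1 and 4 hpf within series 2013_2. No test of this difference was made.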
